A study of Mus musculus with 9 samples.

Results

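Collagens are trimers of chains wound into a triple helix, and each chain has a gene of its own. The genes described here are the collagen chain genes of a mouse tumour study: every protein-coding entry of the deposited count table whose name is Col, a number, the letter a and a number. The rule found 44 genes among the 44806 entries. It uses no expression value, but was chosen with earlier results of these data known. They were sorted into 11 fibrillar chains (types I, II, III, V, XI, XXIV and XXVII), 6 basement membrane chains (type IV) and 27 others.

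Fibrillar collagens are secreted as procollagens, trimmed at their ends and packed into the fibrils that give connective tissue its strength, with type I the main one in most tissues. Type IV collagen instead forms the mesh of basement membranes, the sheets under epithelium and around vessels. In tumours, collagen is made chiefly by fibroblasts, and also by tumour cells and by the cells of vessels.

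The tumours grew from MB49, a mouse bladder cancer line, here overexpressing HER2, and the 9 libraries fall into 3 groups of 3. One group received PBS, the buffer control. The others received Lipo-BiTE or Lipo-TriTE, which the title of the series presents as nanoengagers of T cells made from antibody fragments with lipid tags. Tumours were taken at the end of the experiment. Dose, mouse strain, sex and age are not stated in the labels, nor whether each library is a separate animal, so the tests see only how far these libraries vary. The count columns say untreated where the labels say PBS, and were taken as the PBS libraries because no other group is left for them. The design text speaks of sorted CD3+ T cells, whereas the sample labels and the protocol describe frozen tumour tissue. Krt8, a keratin of simple epithelium and of carcinoma cells, stood at 452 to 478 CPM (counts scaled to a common library total) in the PBS libraries, against 36.6 to 43.1 CPM for 8 T cell markers summed. In Lipo-TriTE it was at 158 to 294 CPM, below the 801 to 1348 CPM of the T cell markers summed.

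Libraries held 13152783 to 20273548 counts, of which the 44 chains took 0.182% to 0.671%. The CPM use totals adjusted by TMM, a method that fits libraries to a common set of genes. PBS 1 stood apart from PBS 2 and PBS 3: its chains summed to 3772 CPM against 6495 and 6415 CPM, and PBS 2 and 3 were the most alike of any pair within a group. What changed in the results against PBS without PBS 1 is given beside them. In bulk tissue, fewer cells of a type and less RNA per cell cannot be told apart.

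A few chains made up nearly all of the collagen RNA. Col3a1, the single chain of type III collagen, held 36.9% to 50.5% of the collagen counts of each library, and the 8 most counted chains together held 90.4% over the 9 libraries. Per kilobase of the deposited gene length, mean PBS levels were 255 CPM for Col3a1, 86.3 for Col4a1, 58.9 for Col18a1, 48.9 for Col5a3, 47.4 for Col4a2, 37.3 for Col7a1, 36.8 for Col6a1, 33.7 for Col16a1 and 30.6 for Col5a1. Col1a1, which codes the main chain of type I collagen, lay far below at 12.4 CPM per kilobase, and Col1a2 at 3.601. These levels depend on the gene model: with the lengths of GENCODE transcripts the same means were 449.6 CPM per kilobase for Col3a1, 86.3 for Col18a1, 13.6 for Col1a1 and 8.37 for Col1a2. Read counts of Col1a1 were 0.0109 to 0.0380 of those of Col3a1 in the same library.

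**Figure D1:**
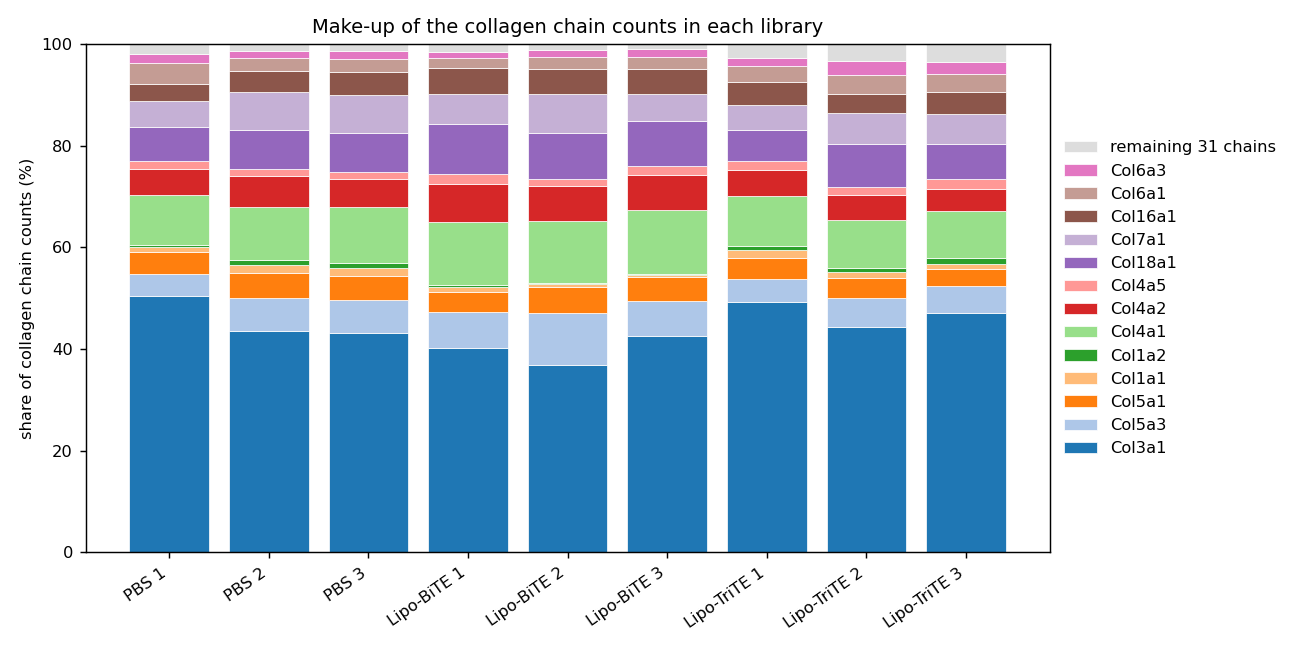
Share of all collagen chain counts (y, percent) held by 13 chains and by the remaining 31 together, 1 bar per library. Col3a1 takes 36.9% to 50.5% of each bar, and type I chains are thin slices throughout.

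By class, fibrillar chains made up 53.1% to 61.3% of the collagen counts, basement membrane chains 15.6% to 21.8% and the others 22.1% to 27.2%. The basement membrane share was 16.6%, 18.0% and 18.1% in PBS, 21.8%, 20.5% and 21.4% in Lipo-BiTE, and 16.6%, 15.95% and 15.6% in Lipo-TriTE. All 3 Lipo-BiTE libraries lay above the other 6 in that share. Shares sum to a whole, so a larger share of 1 class comes with a smaller share of the rest.

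Of the 44 chains, 31 had enough counts to be tested: all 11 fibrillar, 3 of 6 basement membrane and 17 of 27 other chains. The other 13 were detected in at least 1 library but fell below the filter. The highest of these levels was 2.46 CPM for Col6a5 (a chain of type VI), in Lipo-TriTE 2, followed by Col22a1 at 2.02, Col19a1 at 1.52 and Col26a1 at 1.45 CPM in that same library. The remaining 9 below it were Col4a3, Col4a4, Col4a6, Col25a1, Col13a1, Col9a1, Col9a2, Col10a1 and Col6a6, each under 1 CPM in every library. All 13 are named for completeness and nothing is drawn from their levels.

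Summed collagen was highest in PBS and lowest in Lipo-TriTE. The sums were 3772, 6495 and 6415 CPM in PBS, 3114, 4201 and 5088 CPM in Lipo-BiTE, and 2667, 2271 and 1770 CPM in Lipo-TriTE. Every Lipo-TriTE library lay below every other library, while the Lipo-BiTE and PBS ranges overlapped through PBS 1. The fibrillar sum averaged 3242 ± 819 CPM (SD, n = 3) in PBS, 2231 ± 571 CPM after Lipo-BiTE and 1324 ± 296 CPM after Lipo-TriTE. The basement membrane sum averaged 985 ± 312, 876 ± 204 and 361 ± 83.1 CPM in the same order. For the other chains the means were 1334 ± 419, 1027 ± 221 and 552 ± 90.5 CPM. Without PBS 1, the ratio of all collagen to PBS moved from 0.743 to 0.640 for Lipo-BiTE and from 0.402 to 0.346 for Lipo-TriTE. Sums were not tested.

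**Figure D2:**
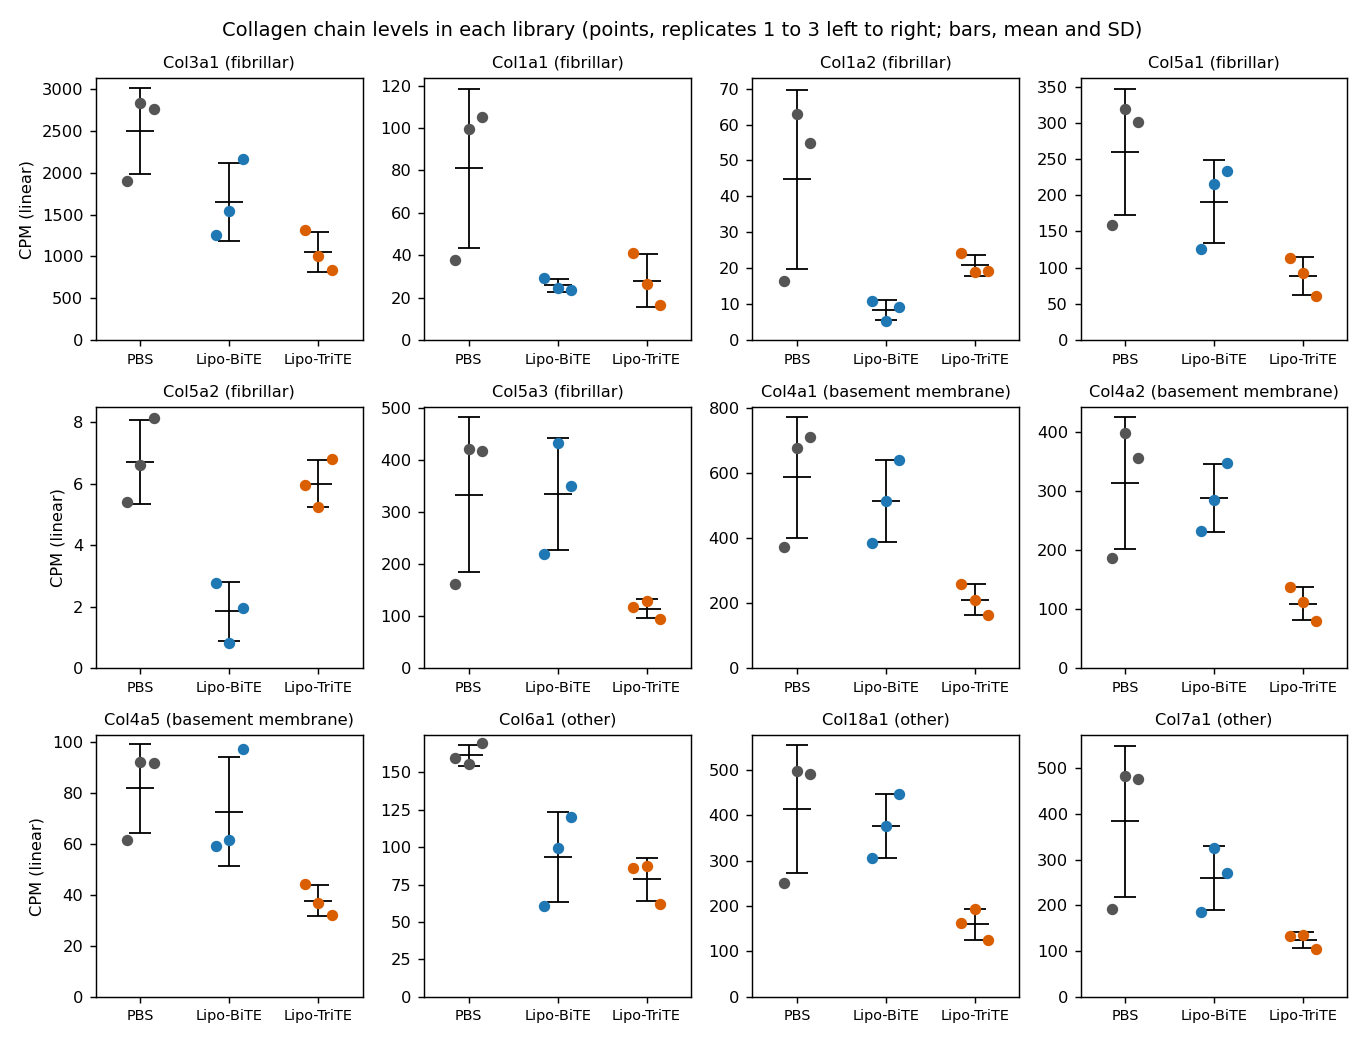
Level (y, CPM on a linear scale) of 12 collagen chains in each library (points), with group mean and SD (bars, n = 3). Basement membrane chains and Col18a1 are lowest in Lipo-TriTE, whereas Col1a2 and Col5a2 are lowest in Lipo-BiTE.

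Lipo-BiTE against PBS asks how the tumours differed after the first of these agents. It gave 6 called chains, all lower, out of 31 tested: 3 fibrillar (Col1a1, Col1a2, Col5a2), 3 other (Col6a1, Col6a2, Col12a1) and 0 of 3 basement membrane chains. A call is an adjusted p under 0.05 in edgeR's quasi-likelihood test, adjusted by Benjamini-Hochberg over all 16596 genes. Those 6 are 19.4% of the tested chains, against 3.22% of all genes called lower. Over all genes 534 were lower and 2283 higher, and the split depends on the scaling: without TMM it was 988 and 2079, with the same count of 6 lower chains, and DESeq2 gave 995 and 2761. By edgeR, 0 chains were called higher, against 13.8% of all genes, with 2 (Col8a2 and Col20a1) at an unadjusted p under 0.05 and 0 by DESeq2. For the basement membrane chains both of these counts were 0. The median log2 fold change was -0.48 over the tested chains and -0.02 over all genes, and 9 chains had every Lipo-BiTE library below every PBS library (29.0%, against 19.4% of all genes).

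Col1a2, the second chain of type I collagen (chr6:1292781-1333259 in the deposited C57BL/6NJ coordinates), was at 16.4, 62.9 and 54.9 CPM in PBS and at 10.7, 5.33 and 9.22 CPM in Lipo-BiTE. The groups did not overlap, although PBS 1 came near. It fell by 2.41 ± 0.45 on the log2 scale (SE, adjusted p = 0.00454), the largest fall among the chains called. Its partner Col1a1 (chr11:100181204-100199590) was at 37.9, 99.6 and 105 CPM in PBS and at 29.3, 24.6 and 23.5 CPM in Lipo-BiTE. It fell by 1.65 ± 0.40 (adjusted p = 0.0177), again with no overlap.

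Col5a2 codes a chain of type V collagen, which sits inside type I fibrils and limits their width. Its level was low, at 5.41, 6.60 and 8.13 CPM in PBS and 2.76, 0.826 and 1.96 CPM in Lipo-BiTE, and it fell by 1.86 ± 0.40 (adjusted p = 0.00953). The type V chains Col5a1 and Col5a3, which are far more abundant, were not called (log2 fold changes -0.44 and 0.00, adjusted p = 0.369 and 0.995). Col3a1 was at 1905, 2832 and 2769 CPM in PBS and 1252, 1549 and 2168 CPM in Lipo-BiTE. Its groups overlapped and its change of -0.60 ± 0.24 was not called (adjusted p = 0.116).

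Outside the fibrils, Col6a1 and Col6a2, chains of the beaded filaments of type VI collagen, fell by 0.79 ± 0.23 (adjusted p = 0.0359) and 1.04 ± 0.25 (adjusted p = 0.0172). Col6a1 was at 159, 156 and 169 CPM in PBS and at 60.7, 99.3 and 120 CPM in Lipo-BiTE, and PBS 1 did not stand apart for it. Col12a1, a collagen attached to the surface of fibrils, was at 6.89, 10.1 and 13.05 CPM in PBS and 2.13, 1.95 and 4.07 CPM in Lipo-BiTE. It fell by 1.88 ± 0.52 (adjusted p = 0.0304). The third main type VI chain, Col6a3, changed by -0.66 ± 0.32 and was not called (adjusted p = 0.177).

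The 3 tested basement membrane chains had small log2 fold changes in this comparison: -0.19 ± 0.27 for Col4a1, -0.12 ± 0.29 for Col4a2 and -0.17 ± 0.23 for Col4a5, with adjusted p of 0.661, 0.808 and 0.645. Without PBS 1 the same values were -0.44, -0.39 and -0.34, still not called. The count of 6 rested on particular libraries. It became 2 without PBS 2 (Col1a2 and Col5a2) and 3 without PBS 3, without Lipo-BiTE 1 or without Lipo-BiTE 2. The share of all genes called lower dropped too, from 3.22% to 1.12%, 0.990%, 0.448% and 0.582%, in that order. Col1a2 and Col5a2 were called whichever library was left out, Col6a2 in 7 of the 9 such fits, Col1a1 in 6, Col12a1 in 5 and Col6a1 in 3. Without PBS 1, Col6a1 was not called (adjusted p = 0.0812) and Col7a1 was (log2 fold change -0.89, adjusted p = 0.0313), with 143 of all genes lower. In that fit the log2 fold changes of Col1a1, Col1a2, Col5a2, Col6a2 and Col12a1 were -1.99, -2.81, -2.00, -1.07 and -2.09, with adjusted p of 0.00649, 0.00244, 0.0158, 0.0382 and 0.0376.

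**Figure D3:**
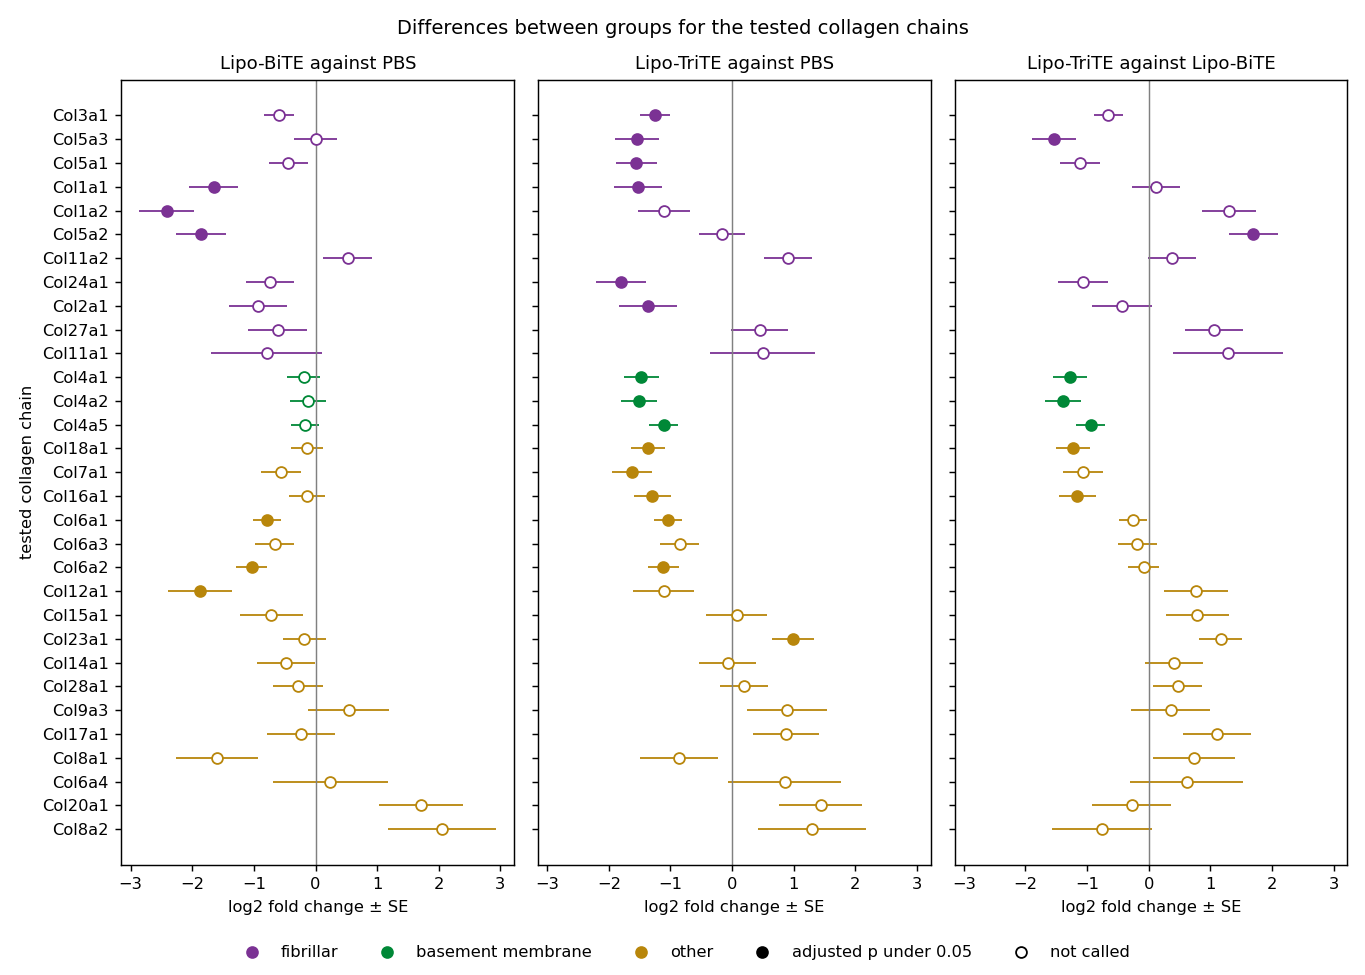
Log2 fold change with its SE (x) for the 31 tested chains (rows, by class and falling PBS level) in the 3 comparisons. Filled points passed an adjusted p of 0.05: 6 chains on the left, 15 in the middle and 7 on the right.

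Lipo-TriTE against PBS gave 15 called chains, 14 lower and 1 higher. The 14 are 45.2% of the tested chains, against 14.8% of all genes called lower, and the 1 higher is 3.23%, against 18.9% of all genes. Every tested basement membrane chain fell (3 of 3), as did 6 of 11 fibrillar and 5 of 17 other chains. Both comparisons with PBS use the same PBS libraries, so their values are not independent. The median log2 fold change was -1.04 over the tested chains and 0.00 over all genes, and 15 chains had every Lipo-TriTE library below every PBS library (48.4%, against 23.5% of all genes). By class that median was -1.25 for fibrillar, -1.47 for basement membrane and -0.07 for the other chains, of which 9 of 17 lay below 0.

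Col3a1 (chr1:46187689-46232092) was at 1314, 1005 and 833 CPM in Lipo-TriTE, all below the 3 PBS libraries given above, and fell by 1.25 ± 0.24 (adjusted p = 0.00309). Col5a1 was at 159, 319 and 301 CPM in PBS and at 113, 92.5 and 60.0 CPM in Lipo-TriTE. It fell by 1.55 ± 0.33 (adjusted p = 0.00503). Col5a3 fell by 1.54 ± 0.36 (adjusted p = 0.00793), from 161, 421 and 417 CPM to 118, 130 and 95.1 CPM. For both chains PBS 1 was the PBS library nearest to the treated ones.

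Col1a1 also fell, by 1.53 ± 0.39 (adjusted p = 0.0133), but its libraries overlapped: it was at 41.2, 26.2 and 16.5 CPM in Lipo-TriTE, with 37.9 CPM in PBS 1. Without PBS 2 or PBS 3 it was not called (adjusted p = 0.0538 and 0.0557). Col1a2 was at 24.2, 18.8 and 19.3 CPM in Lipo-TriTE, above the 16.4 CPM of PBS 1. Its change of -1.11 ± 0.42 was not called (adjusted p = 0.0676). Without PBS 1 it became -1.52 and was called (adjusted p = 0.00214). Col5a2 was at 5.96, 5.25 and 6.78 CPM, overlapping the PBS libraries, and its change of -0.16 ± 0.38 was not called (adjusted p = 0.768).

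The remaining fibrillar calls were of low chains. Col24a1 fell by 1.80 ± 0.41 (adjusted p = 0.00647), from 5.71, 3.65 and 4.03 CPM to 1.02, 1.01 and 1.81 CPM. Col2a1, the collagen of cartilage, fell by 1.36 ± 0.48 (adjusted p = 0.0468), from 1.78, 3.42 and 3.80 CPM to 1.55, 0.822 and 1.10 CPM. Its call was lost in 7 of the 9 fits with a library left out. The cartilage markers Acan and Matn1 were under 1 CPM in every library. The 6 cartilage markers in the table summed to 23.4 to 30.1 CPM in PBS and 10.7 to 18.1 CPM in Lipo-TriTE, and the largest of them was Sox9. Sox9 was at 21.8, 29.5 and 28.1 CPM in PBS and 7.61, 13.8 and 9.69 CPM in Lipo-TriTE, and fell by 1.35 (adjusted p = 0.00189). It was the only call among the 2 cartilage markers tested, whose median log2 fold change was -0.23. Comp, a low marker, was at 0.889, 0.354 and 0.534 CPM in PBS and 1.60, 1.45 and 0.194 CPM in Lipo-TriTE.

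All 3 tested chains of type IV collagen fell with Lipo-TriTE. These chains come from gene pairs that lie head to head: Col4a1 (minus strand, chr8:8745072-8867068) and Col4a2 (plus strand, chr8:8867047-9005470) overlap by 22 bases at their starts, and are read in opposite directions from a shared promoter. The same arrangement is seen in RefSeq's GRCm38.p6, where the start sites lie at 11312826 and 11312805. Since these genes move together below, their promoters are shown, from 250 bases before to 50 bases after the start site, 5′ to 3′ on the strand of each gene. Capitals mark TATAAA (the TATA box), CCAAT (the CCAAT box) and GGGCGG (the GC box, bound by Sp1) on either strand, so that ATTGG and CCGCCC are the CCAAT and GC boxes read from the other strand.
Col4a1 chr8:11312777-11313076 (minus): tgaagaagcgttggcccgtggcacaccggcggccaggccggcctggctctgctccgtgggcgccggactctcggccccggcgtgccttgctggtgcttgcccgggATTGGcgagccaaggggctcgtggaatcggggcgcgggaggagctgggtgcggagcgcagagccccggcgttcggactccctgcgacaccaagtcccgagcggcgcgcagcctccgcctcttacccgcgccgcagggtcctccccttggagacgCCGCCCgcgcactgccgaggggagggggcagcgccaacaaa
Col4a2 chr8:11312555-11312854 (plus): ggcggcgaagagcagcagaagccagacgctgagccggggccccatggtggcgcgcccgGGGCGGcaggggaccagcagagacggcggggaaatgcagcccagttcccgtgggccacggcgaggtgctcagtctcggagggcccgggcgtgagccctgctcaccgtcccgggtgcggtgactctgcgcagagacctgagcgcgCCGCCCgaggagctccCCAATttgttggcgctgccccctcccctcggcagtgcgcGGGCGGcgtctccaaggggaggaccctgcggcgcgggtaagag
The windows share 78 bases. Neither holds a TATA box, and both hold CCAAT and GC boxes.

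Col4a1 was at 374, 679 and 711 CPM in PBS, 387, 516 and 641 CPM in Lipo-BiTE, and 260, 212 and 164 CPM in Lipo-TriTE. All Lipo-TriTE libraries lay below the other 6. It fell by 1.47 ± 0.28 against PBS (adjusted p = 0.00266). Col4a2 was at 188, 399 and 356 CPM in PBS, 233, 286 and 347 CPM in Lipo-BiTE, and 137, 113 and 79.7 CPM in Lipo-TriTE, and fell by 1.51 ± 0.29 (adjusted p = 0.00315). Both were called against PBS whichever library was left out, with log2 fold changes of -1.73 to -1.30 and -1.80 to -1.29. The ratio of Col4a2 to Col4a1 counts was 0.488 to 0.603 in the 9 libraries, while the level of Col4a1 itself ranged from 164 to 711 CPM.

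In a second head-to-head pair, 1 gene was active and the other nearly silent. Col4a5 (plus strand, chrX:142989512-143216167) and Col4a6 (minus strand, chrX:142658482-142988203) lie 1308 bases apart, and mutations of the human counterpart of Col4a5 cause Alport syndrome. Col4a5 was at 61.6, 91.9 and 91.6 CPM in PBS, 59.2, 61.4 and 97.3 CPM in Lipo-BiTE, and 44.4, 36.8 and 32.05 CPM in Lipo-TriTE. It fell by 1.11 ± 0.23 against PBS (adjusted p = 0.00429). Col4a6 reached at most 0.667 CPM (9 counts, in PBS 1) and was not tested. The RefSeq windows of this pair do not touch:
Col4a5 chrX:141475169-141475468 (plus): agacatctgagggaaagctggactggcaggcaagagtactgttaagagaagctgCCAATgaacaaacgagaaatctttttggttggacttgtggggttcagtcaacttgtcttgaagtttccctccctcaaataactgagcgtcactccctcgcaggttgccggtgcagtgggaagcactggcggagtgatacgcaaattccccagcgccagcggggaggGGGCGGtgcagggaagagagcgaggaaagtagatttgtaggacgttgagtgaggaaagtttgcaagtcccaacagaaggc
Col4a6 chrX:141474027-141474326 (minus): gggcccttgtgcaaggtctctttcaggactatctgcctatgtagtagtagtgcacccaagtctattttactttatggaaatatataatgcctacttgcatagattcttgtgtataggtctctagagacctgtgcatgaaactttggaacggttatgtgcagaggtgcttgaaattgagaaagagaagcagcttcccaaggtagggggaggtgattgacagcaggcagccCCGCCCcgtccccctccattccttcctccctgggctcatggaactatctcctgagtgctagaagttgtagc
That of Col4a5 holds 1 CCAAT and 1 GC box, and that of Col4a6 holds 1 GC box. The third pair, Col4a3 and Col4a4, lies 71 bases apart and was under 1 CPM for both genes in every library.

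Among the other classes, 5 chains fell with Lipo-TriTE. Col18a1, a basement membrane proteoglycan core whose cut end is endostatin, was at 250, 498 and 492 CPM in PBS and at 163, 193 and 124 CPM in Lipo-TriTE. It fell by 1.37 ± 0.27 (adjusted p = 0.00341). Col7a1, which forms the anchoring fibrils beneath epithelium, fell by 1.62 ± 0.33 (adjusted p = 0.0043), from 193, 482 and 477 CPM to 133, 136 and 104 CPM. Col16a1, of the fibril-associated group, fell by 1.30 ± 0.30 (adjusted p = 0.00801). For these 3 the PBS and Lipo-TriTE libraries did not overlap, and PBS 1 was the lowest PBS library for each.

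For type VI, Col6a1 fell by 1.04 ± 0.23 (adjusted p = 0.00558), to 86.2, 87.4 and 61.7 CPM, and Col6a2 by 1.12 ± 0.25 (adjusted p = 0.00629). Col6a3 changed by -0.85 ± 0.32 and was not called (adjusted p = 0.0634). Col15a1, the relative of Col18a1, was at 4.67, 2.77 and 1.72 CPM in PBS and 4.41, 1.64 and 3.49 CPM in Lipo-TriTE, with a change of 0.07 ± 0.50 (adjusted p = 0.929).

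The chain called higher was Col23a1, a membrane-spanning collagen. It was at 4.15, 2.36 and 2.08 CPM in PBS and 6.54, 5.31 and 5.04 CPM in Lipo-TriTE, and rose by 0.98 ± 0.34 (adjusted p = 0.0472). The call was lost in 8 of the 9 fits with a library left out and held without PBS 1. Across those fits the count of called chains was 12 to 17, and 1391 to 2644 of all genes were called lower. Besides Col1a1, Col2a1 and Col23a1, the other 12 were called in all 9. Without PBS 1 the 15 remained and Col1a2 and Col6a3 were added. In that fit the log2 fold changes of the largest chains were -1.43 for Col3a1, -1.73 for Col4a1, -1.80 for Col4a2, -1.65 for Col18a1 and -1.96 for Col7a1, with adjusted p of 0.00223, 0.000928, 0.00077, 0.000702 and 0.000464.

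The tested chains called in no comparison were Col6a3, Col15a1 and 11 low ones. Among the fibrillar chains these were Col11a1, Col11a2 and Col27a1, and among the others Col6a4, Col8a1, Col8a2, Col9a3, Col14a1, Col17a1, Col20a1 and Col28a1. The highest level of any of the 11 was 11.2 CPM, for Col11a2 in Lipo-TriTE 1, and the next was 4.04 CPM, for Col17a1, the collagen of hemidesmosomes, in Lipo-TriTE 2. At such levels changes in either direction were seen with wide errors: Col8a2 stood at 2.06 ± 0.88 and Col8a1 at -1.60 ± 0.66 in Lipo-BiTE against PBS (adjusted p = 0.133 and 0.122).

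Lipo-TriTE against Lipo-BiTE compares the agents with each other, with no PBS library in the contrast. It gave 6 chains lower and 1 higher, 19.4% and 3.23% of the tested chains, against 5.21% and 4.88% of all genes. The split depends on the scaling: over all genes it was 865 lower and 810 higher, but 451 and 1099 without TMM, where 4 chains were lower and 2 higher. The 6 were the 3 basement membrane chains, Col18a1, Col16a1 and Col5a3, and the 1 higher was Col5a2. In 9 chains every Lipo-TriTE library lay below every Lipo-BiTE library (29.0%, against 14.5% of all genes). The median log2 fold change was -1.28 over the 3 basement membrane chains, 0.12 over the 11 fibrillar and 0.36 over the 17 other chains, and -0.01 over all genes.

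In this contrast Col4a1 fell by 1.28 ± 0.28 (adjusted p = 0.0185), Col4a2 by 1.39 ± 0.29 (adjusted p = 0.0169) and Col4a5 by 0.94 ± 0.23 (adjusted p = 0.0293), with no overlap between libraries. Col18a1 fell by 1.23 ± 0.27 (adjusted p = 0.0196), from 306, 377 and 446 CPM to the levels given above. Col5a3 fell by 1.54 ± 0.36 (adjusted p = 0.0242), from 220, 432 and 351 CPM. For Col16a1, at 162, 205 and 253 CPM in Lipo-BiTE and 117, 84.3 and 75.7 CPM in Lipo-TriTE, the fall was 1.16 ± 0.30 (adjusted p = 0.0365).

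Col5a2 went the other way and rose by 1.70 ± 0.40 (adjusted p = 0.0249), with all Lipo-TriTE libraries above all Lipo-BiTE libraries. Col1a2 also had every Lipo-TriTE library above every Lipo-BiTE library, with a log2 difference of 1.30 ± 0.44 that was not called (adjusted p = 0.088). Col1a1, Col6a1, Col6a2 and Col6a3 differed by 0.12, -0.25, -0.08 and -0.19, with adjusted p of 0.888, 0.54, 0.88 and 0.764. Col3a1 differed by -0.65 ± 0.24 (adjusted p = 0.112). Col7a1 and Col5a1 had no overlap but were not called (adjusted p = 0.0662 and 0.0552).

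These 7 calls were less stable than those against PBS. None passed without Lipo-BiTE 2 or without Lipo-TriTE 3, where the adjusted p of the 7 ran from 0.0598 to 0.103 and from 0.0581 to 0.121. Calls over all genes also dropped there, from 865 lower and 810 higher to 158 and 276, and to 293 and 479. In those fits Col4a1 kept log2 differences of -1.30 and -1.13, with unadjusted p of 0.00234 and 0.00409. There were 2 calls without Lipo-BiTE 3 or without Lipo-TriTE 2, and 12 without PBS 1 or without Lipo-BiTE 1. Of all genes, 556, 418, 1120 and 1031 were lower without these libraries, in that order. DESeq2 called 11 chains, all 7 of these among them.

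Partner chains did not all keep a fixed ratio. The ratio of Col4a2 to Col4a1 counts varied 1.24-fold over the 9 libraries, that of Col6a2 to Col6a1 1.62-fold (0.138 to 0.224), that of Col1a2 to Col1a1 5.40-fold and that of Col5a2 to Col5a1 29.4-fold. Col1a2 over Col1a1 was 0.432, 0.632 and 0.522 in PBS, 0.366, 0.216 and 0.392 in Lipo-BiTE, and 0.587, 0.718 and 1.17 in Lipo-TriTE. Col5a2 over Col5a1 was 0.0339, 0.0207 and 0.0270 in PBS, 0.0219, 0.00384 and 0.00841 in Lipo-BiTE, and 0.0529, 0.0567 and 0.113 in Lipo-TriTE. In both, every Lipo-TriTE library exceeded every Lipo-BiTE library. The widths of these ranges rest on single libraries: without Lipo-BiTE 2, which held 11 counts of Col5a2, they were 3.20-fold for Col1a2 over Col1a1 and 13.4-fold for Col5a2 over Col5a1, and without Lipo-TriTE 3 they were 3.32-fold and 14.8-fold. Ratios of counts do not depend on library scaling, and they were not tested. The trimer of type I takes 2 chains from Col1a1 for 1 from Col1a2, but counts per gene length depend on the gene model used: the highest Col1a2 over Col1a1 was 0.616 with the deposited lengths and 1.30 with GENCODE transcripts.

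**Figure D4:**
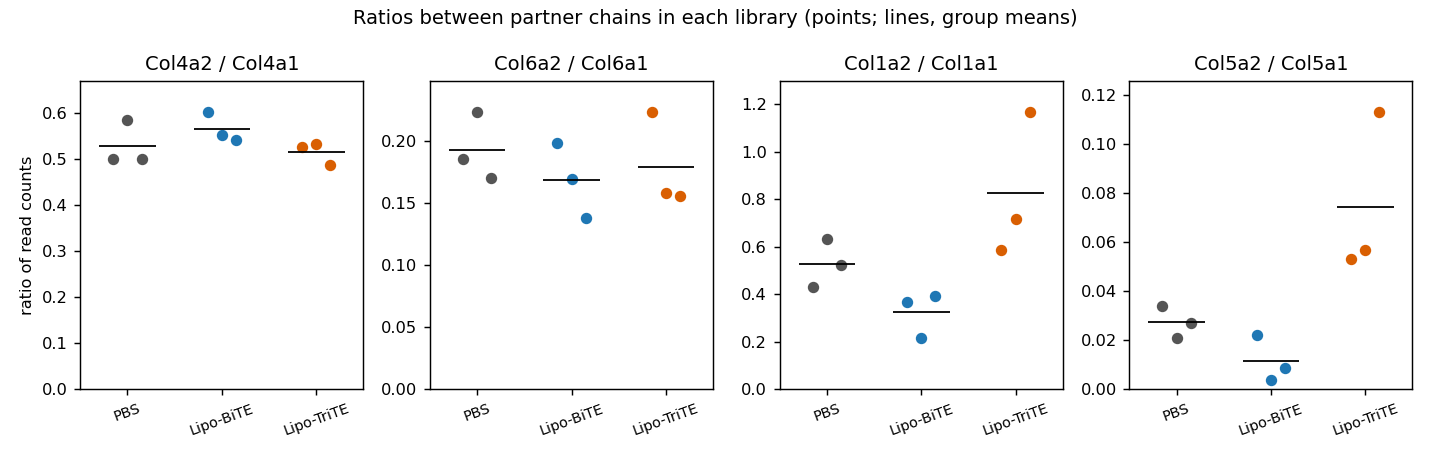
Ratio of read counts (y, linear) between chains that share a trimer, 1 point per library with a line at the group mean. Col4a2 over Col4a1 stays between 0.488 and 0.603, while Col1a2 over Col1a1 and Col5a2 over Col5a1 are lower in every Lipo-BiTE library than in any Lipo-TriTE library.

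Col3a1 and Col5a2 are also neighbours, pointing at each other on chromosome 1 with 27777 bases between them, yet Col5a2 counts were 0.000533 to 0.00815 of those of Col3a1. The promoters of the leading fibrillar chain and of the chain with the largest fall are shown because they differ in makeup. Col5a2 and Col1a1 are named only.
Col3a1 chr1:45311288-45311587 (plus): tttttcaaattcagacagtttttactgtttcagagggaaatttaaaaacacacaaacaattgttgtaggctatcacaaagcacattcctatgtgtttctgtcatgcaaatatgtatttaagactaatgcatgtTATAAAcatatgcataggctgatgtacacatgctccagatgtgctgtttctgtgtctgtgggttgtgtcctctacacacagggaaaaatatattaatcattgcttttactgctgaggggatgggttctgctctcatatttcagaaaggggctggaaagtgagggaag
Col1a2 chr6:4505368-4505667 (plus): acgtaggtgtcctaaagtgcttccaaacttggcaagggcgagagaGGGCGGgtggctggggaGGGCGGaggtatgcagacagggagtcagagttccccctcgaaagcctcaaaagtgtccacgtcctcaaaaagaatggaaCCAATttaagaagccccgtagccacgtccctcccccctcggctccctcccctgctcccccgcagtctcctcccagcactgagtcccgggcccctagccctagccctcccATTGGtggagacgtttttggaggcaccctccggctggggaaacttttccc
The Col3a1 window holds the letters TATAAA at -117 and no CpG, with 37.7% G and C. That of Col1a2 holds no TATAAA, 13 CpG and 61.0% G and C, with GC boxes at -205 and -188. Over 38 windows of 300 bases for 35 of the 44 chains, TATAAA stood at any position in 13.2%, a CCAAT box in 34.2% and a GC box in 60.5%. In all 32851 mouse promoters of the table the shares were 13.6%, 37.4% and 35.7%. The median share of G and C was 59.8% in the collagen windows and 52.7% in all, and its part in the GC box shares was not tested. Motifs were counted on both strands, and no motif lies within another. A match is a description of the letters, not of binding.

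The 3′ ends of some of these transcripts, though not all, share a further feature. miR-29 is a family of small RNAs known to repress collagen and other matrix genes through matches to its seed, bases 2 to 8, shown in capitals in the mature sequences from RefSeq:
miR-29a-3p: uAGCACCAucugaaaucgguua
miR-29b-3p: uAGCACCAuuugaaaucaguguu
miR-29c-3p: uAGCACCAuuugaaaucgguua
The reverse complement of the seed, TGGTGCT, occurs in the 3′ UTR of 24 of 44 chains (54.5%), against 11.8% of 20967 protein-coding genes, in GENCODE transcripts of GRCm38. The median UTR was 920.5 bases for the chains and 803 for all genes, and matches numbered 0.760 and 0.107 per kilobase. All 6 basement membrane chains had one, 9 of 11 fibrillar and 9 of 27 others. Examples from chains described above, with the match in capitals and the position counted from the UTR's first base, are these:
Col3a1 at 235: ttcaaaatgtctcaaTGGTGCTat
Col1a1 at 919: gtgggaaggaatttcTGGTGCTat
Col5a2 at 1112: cttttcttttaatgaTGGTGCTaa
Col4a1 at 33: gccaccgtcacaacaTGGTGCTac
Col4a2 at 43: gtgggaaggccacgtTGGTGCTta
Col4a5 at 129: cactgctcccaccaaTGGTGCTaa
In Lipo-TriTE against PBS, every chain called lower carries a match except Col18a1 and Col6a1. Among the tested chains not called lower there, Col5a2, Col6a3, Col8a1, Col11a1, Col15a1 and Col27a1 carry matches and the rest do not. Many of those without a match were low chains. Of the chains lower with Lipo-BiTE, Col1a1, Col5a2 and Col6a2 carry a match, and Col1a2, Col6a1 and Col12a1 do not. Whether the matches bear on these calls was not tested. miR-29 itself was not measured here.

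Genes that handle collagen were taken from lists chosen by role. The largest holds the enzymes and chaperones that hydroxylate, fold, trim and cross-link the chains, 32 genes of which 26 were tested. Against PBS, 4 were lower with Lipo-BiTE and 21 with Lipo-TriTE, and 10 were lower in Lipo-TriTE against Lipo-BiTE, with 0 higher in any comparison by edgeR or by DESeq2, and 0 at an unadjusted p under 0.05. For Lipo-BiTE, Lipo-TriTE (each against PBS) and between the agents, in that order, the shares of all genes called lower were 3.22%, 14.8% and 5.21%, and those called higher 13.8%, 18.9% and 4.88%. These shares are the background for each list that follows. Median log2 fold changes of the 26 were -0.48, -1.04 and -0.54. Without PBS 1, 2 were lower with Lipo-BiTE, Loxl3 among them, and 19 with Lipo-TriTE. Serpinh1, the collagen chaperone HSP47, was at 1315, 1412 and 1430 CPM in PBS, 631, 863 and 1095 CPM in Lipo-BiTE, and 508, 702 and 610 CPM in Lipo-TriTE. It fell by 0.68 ± 0.20 (adjusted p = 0.0372) and 1.19 ± 0.20 (adjusted p = 0.0014) against PBS. PBS 1 did not stand apart for this gene, although without it Serpinh1 was not called with Lipo-BiTE (adjusted p = 0.0681).

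With Lipo-BiTE the other called members were P4ha3, a prolyl hydroxylase subunit (-1.40, adjusted p = 0.0117), Loxl3, a cross-linking oxidase (-0.66, adjusted p = 0.0154), and Pcolce, an enhancer of procollagen trimming (-0.70, adjusted p = 0.0351). With Lipo-TriTE the smallest p belonged to Crtap (-1.07), Fkbp10 (-1.21), Loxl2 (-1.15) and Loxl3 (-0.98), with adjusted p of 0.000651, 0.00095, 0.000993 and 0.00105. Between the agents they were P4ha2 (-1.08), Plod3 (-0.84), P4ha1 (-0.71) and Plod1 (-0.74), all hydroxylases of collagen, with adjusted p of 0.00841, 0.00939, 0.0238 and 0.03. P4ha2 and P4ha1 were not called in Lipo-BiTE against PBS (adjusted p = 0.835 and 0.452).

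**Figure D5:**
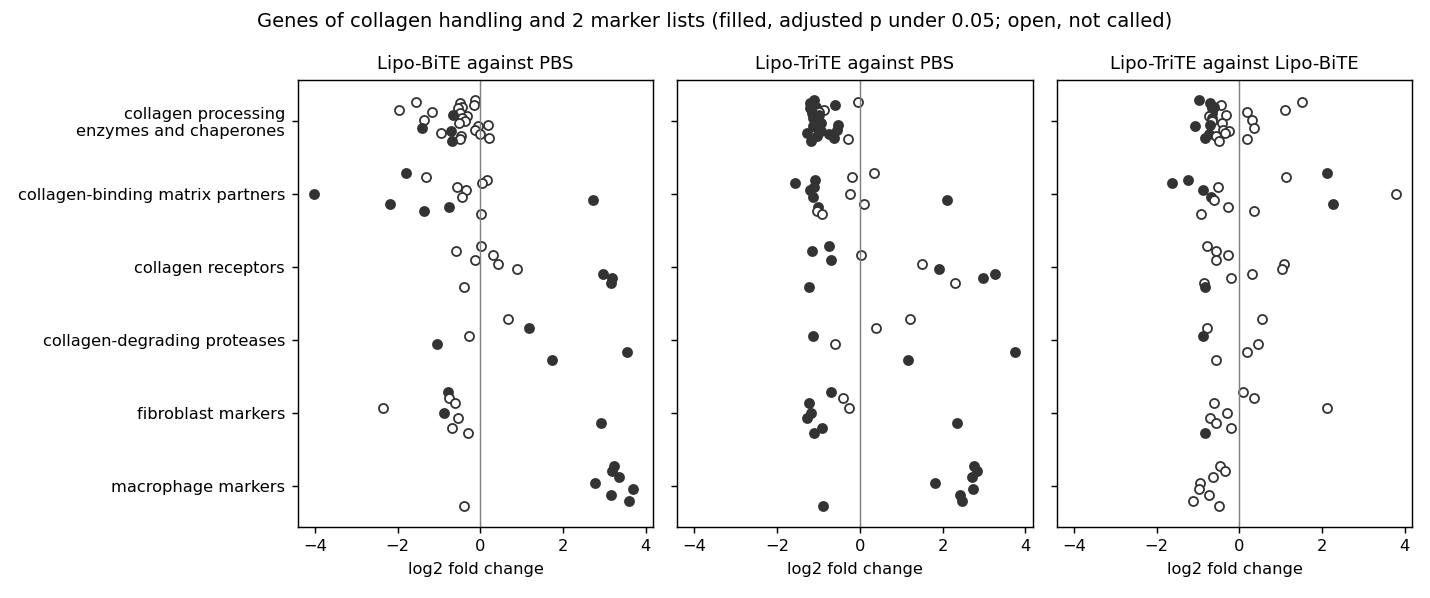
Log2 fold change (x) of each tested gene in 4 lists of collagen handling and 2 lists of cell type markers (rows) for the 3 comparisons, filled where the adjusted p was under 0.05. In the middle panel 21 of 26 processing genes are filled and lie left of 0, while 7 of 8 macrophage markers lie to the right.

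Of 13 tested partners of collagen in the matrix, 5 were lower and 1 higher with Lipo-BiTE, 6 and 1 with Lipo-TriTE, and 4 and 2 between the agents. The lower ones were 3 and 8 against PBS without PBS 1, where Sparc was not called with Lipo-BiTE (adjusted p = 0.0602). Nid1, Lamb1 and Lamc1, which build the basement membrane with type IV collagen, fell with Lipo-TriTE by 1.13, 1.10 and 1.22 (adjusted p = 0.00113, 0.00137 and 0.00095) and were not called with Lipo-BiTE (adjusted p = 0.117, 0.0535 and 0.236). Postn and Bgn, which bind fibrillar collagen, fell with Lipo-BiTE by 2.18 and 1.79 (adjusted p = 0.00154 and 0.0114). Between the agents Postn and Bgn rose by 2.27 and 2.13 (adjusted p = 0.00455 and 0.0106). Postn was at 9.41, 8.25 and 7.12 CPM in PBS, 2.44, 1.73 and 1.31 CPM in Lipo-BiTE, and 6.05, 9.35 and 11.1 CPM in Lipo-TriTE. Sparc fell against PBS by 0.75 (adjusted p = 0.0173) and 1.02 (adjusted p = 0.00202). Fn1, fibronectin, fell by 1.24 between the agents (adjusted p = 0.0067). Nid2, a relative of Nid1, was the one partner that rose against PBS, with Lipo-BiTE by 2.72 (adjusted p = 0.00295) and with Lipo-TriTE by 2.11 (adjusted p = 0.00632), from a mean of 0.744 CPM. Hspg2, or perlecan, fell by 1.57 with Lipo-TriTE (adjusted p = 0.00804).

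Of 10 tested genes on the list of collagen receptors, 3 were higher and 0 lower with Lipo-BiTE, 3 and 4 with Lipo-TriTE, and 0 and 1 between the agents. Without PBS 1 the counts against PBS were 3 and 0, and 3 and 4. The receptors with a call of 0 had 1 gene at an unadjusted p under 0.05 in each case, Ddr2 (lower with Lipo-BiTE, also called by DESeq2) and Itga2 (higher between the agents, not called by DESeq2). Those higher with Lipo-BiTE were Itgb1, Lair1 and Mag, and with Lipo-TriTE Itgb1, Lair1 and Itga2. Mag was counted because the list held it, and whether it acts as a collagen receptor was not tested. It was near the floor, at 0, 0.236 and 0.297 CPM in PBS and 2.68, 1.43 and 1.02 CPM in Lipo-BiTE. Itgb1, the shared subunit of many integrins, was at 28.8 to 29.7 CPM in PBS, 141 to 358 in Lipo-BiTE and 246 to 324 in Lipo-TriTE. It rose by 2.96 (adjusted p = 0.000765) and 3.26 (adjusted p = 7.25e-05). Lair1, an inhibitory receptor of leukocytes, was at 4.95 to 7.78 CPM in PBS, 29.5 to 89.1 in Lipo-BiTE and 46.8 to 50.2 in Lipo-TriTE. Ddr2, a kinase receptor of mesenchymal cells, fell with Lipo-TriTE by 1.15 (adjusted p = 0.00145), and Mrc2, which takes up collagen, by 1.23 (adjusted p = 0.00295). The other two that fell with Lipo-TriTE were Itga10 and Ddr1.

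Among 6 tested proteases that cut collagen, Mmp8 and Mmp9 rose with Lipo-BiTE by 3.55 and 1.73 (adjusted p = 0.0108 and 0.00536) and with Lipo-TriTE by 3.74 and 1.15 (adjusted p = 0.00471 and 0.0204). Both are enzymes stored by neutrophils. Mmp13 also rose with Lipo-BiTE, by 1.17 (adjusted p = 0.0148), and Mmp2 fell by 1.04 (adjusted p = 0.0309). Mmp14, a membrane-bound collagenase, was at 428, 552 and 541 CPM in PBS, 355, 456 and 457 CPM in Lipo-BiTE, and 228, 247 and 217 CPM in Lipo-TriTE. Without PBS 1, Mmp9 alone was called with Lipo-BiTE (adjusted p = 0.0326), with 0.0523, 0.0558 and 0.0884 for Mmp8, Mmp13 and Mmp2, and Mmp9 was not called with Lipo-TriTE (adjusted p = 0.0656). Mmp14 fell with Lipo-TriTE by 1.14 against PBS (adjusted p = 0.000445) and by 0.87 between the agents (adjusted p = 0.00885).

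Marker lists of other cell types were read in the same fit. The 10 fibroblast markers summed to 375 to 500 CPM in PBS, 338 to 377 in Lipo-BiTE and 237 to 272 in Lipo-TriTE. Of 9 tested, 2 were lower and 1 higher with Lipo-BiTE, 6 and 1 with Lipo-TriTE and 1 and 0 between the agents. Pdgfrb fell with Lipo-TriTE by 1.27 (adjusted p = 0.00267), Dpt and Pdgfra fell with both agents, and Pi16 rose with both. Clec3b was under 1 CPM throughout. The 6 markers of simple epithelium and tumour cells summed to 900 to 974, 611 to 840 and 396 to 675 CPM, with 2 of 6 higher and 0 lower with Lipo-BiTE and 2 higher and 2 lower with Lipo-TriTE. Krt8 fell with Lipo-TriTE by 0.92 (adjusted p = 0.00977) and Krt18 by 0.78 (adjusted p = 0.0185). Cdh1 and Krt7, both low in PBS, were those called higher, Krt7 with Lipo-BiTE not so without PBS 1 (adjusted p = 0.053). The median log2 fold changes of these 6 were -0.08 and 0.11.

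Against PBS, 8 of 8 T cell markers rose with each agent, and so did 7 of 8 macrophage markers, while the macrophage marker Mertk fell with Lipo-TriTE. B cell markers rose with Lipo-TriTE (6 of 6), and 0 of 6 were called with Lipo-BiTE by edgeR, with 2 at an unadjusted p under 0.05 and 2 called by DESeq2. The sums in PBS, Lipo-BiTE and Lipo-TriTE were 36.6 to 43.1, 179 to 335 and 801 to 1348 CPM for 8 T cell markers. They were 221 to 232, 768 to 1743 and 552 to 716 CPM for 8 macrophage markers, and 7.18 to 10.9, 9.59 to 16.7 and 347 to 950 CPM for 6 B cell markers. Endothelial markers summed to 139 to 163, 225 to 242 and 156 to 227 CPM, with Tek, Emcn and Cldn5 under 1 CPM throughout. Most of each sum came from Cdh5 and Pecam1. Cdh5 was at 125 to 150, 112 to 212 and 73.7 to 94.0 CPM, and Pecam1 at 5.19 to 5.56, 21.9 to 93.7 and 66.1 to 117 CPM. The sum is thus no steady measure of endothelial cells. Of 6 tested, 1 was higher and 0 lower with Lipo-BiTE, 2 and 1 with Lipo-TriTE, and 0 and 1 between the agents. Pecam1 rose with both agents, by 3.97 with Lipo-TriTE (adjusted p = 0.000265). Kdr, a receptor of vascular endothelial growth factor, was at 1.48, 0.413 and 0.890 CPM in PBS and 9.83, 3.54 and 3.42 CPM in Lipo-TriTE, and rose by 2.61 (adjusted p = 0.00895). Cdh5, a junction protein of endothelium, fell with Lipo-TriTE by 0.75 against PBS (adjusted p = 0.0179) and by 0.94 between the agents (adjusted p = 0.0204). Pericyte and smooth muscle markers summed to 17.0 to 17.6, 13.0 to 17.3 and 21.1 to 33.4 CPM, with Cnn1 under 1 CPM throughout. Among the 6 tested, 3 were higher and 0 lower with Lipo-TriTE, against 18.9% and 14.8% of all genes. In the other comparisons edgeR called 0. There DESeq2 called 1 higher and 1 lower with Lipo-BiTE, and 2 higher and 0 lower between the agents. Keratinocyte markers were near absent, with 6 of 7 under 1 CPM in every library, and sums of 3.54 to 4.30, 1.73 to 4.96 and 2.91 to 4.52 CPM. Of the skeletal muscle markers 5 of 8 were under 1 CPM, with sums of 30.9 to 33.2, 19.0 to 26.4 and 18.5 to 30.0 CPM. Nearly all of the PBS sum was Tnnt3, at 29.0 to 31.3 CPM. Of 2 tested, 1 was higher and 1 lower with Lipo-TriTE, and 1 higher and 0 lower between the agents. With Lipo-BiTE 0 were called by edgeR or DESeq2, with Tnnt3 lower at an unadjusted p under 0.05. The part of these shifts in the collagen results was not tested.

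Set against Krt8 within each library, the chains spread differently. The ratio of Col4a1 to Krt8 counts was 0.808, 1.42 and 1.57 in PBS, 1.46, 1.51 and 1.69 in Lipo-BiTE, and 1.64, 0.721 and 0.574 in Lipo-TriTE. Lipo-TriTE 1, where Krt8 was lowest at 158 CPM, lay within the Lipo-BiTE range, and the other two Lipo-TriTE libraries lay below all others. For Col3a1 the ratio was 2.92 to 8.30 in Lipo-TriTE and 4.12 to 6.13 in PBS, so the groups overlapped. Col1a2 over Krt8 was 0.0354, 0.132 and 0.122 in PBS, 0.0404, 0.0156 and 0.0243 in Lipo-BiTE, and 0.153, 0.0641 and 0.0675 in Lipo-TriTE, with every Lipo-TriTE library above every Lipo-BiTE library.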

How the data were processed

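The data are 9 RNA-seq libraries of tumour tissue. As deposited, 1 table of 44806 entries, named by C57BL/6NJ gene models, holds unnormalized read counts, judging by its header and its unequal column totals. The aligner, counter, genome build and strand setting were not given in the sources used here, so overlapping genes may share reads. Counts were fitted as deposited with edgeR 4.0.16 (limma 3.58.1, R 4.3.3): TMM, filterByExpr by group, quasi-likelihood F test with robust dispersion over all 9 libraries, 3 contrasts, and Benjamini-Hochberg adjustment over 16596 tested genes, called under 0.05. The fit was tested on simulated data. Intervals from counting alone are not given, since reads without molecular identifiers are not molecules. CPM in the text use TMM totals. Levels per kilobase divide by the deposited gene length, whose definition is not given.

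The members, lists and tests were chosen with earlier results of these data known. Named were all chains called, a fixed set of chains whatever their result, and up to 4 genes of each pathway list with the smallest p in each comparison. Pdgfrb, Dpt and other single markers were named after their values were seen. Alternatives were DESeq2 1.42.0, total counts without TMM, other filters, only the groups compared, the replicate number as a block, and each library left out. GENCODE transcript lengths, ratio ranges with a library left out and list counts without PBS 1 were added after seeing the data. Promoters and miRNAs came from RefSeq tables (GRCm38.p6), and 3′ UTRs from GENCODE M21. Figures used matplotlib 3.10.9.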

Additional observations from a re-analysis of the deposited data

How the results depend on the processing

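With 13152783 to 20273548 counts a library and 3 libraries a group, small changes of low chains could not be resolved. Library scaling without TMM moved the median log2 fold change of all genes to -0.16 for Lipo-BiTE against PBS and to 0.11 for Lipo-TriTE against Lipo-BiTE. Leaving out 1 library gave 80 to 971 genes lower in the first of these, against 534. Called chains numbered 5 to 9 under the other settings for Lipo-BiTE against PBS (6 as reported) and 13 to 17 for Lipo-TriTE against PBS (15). For Lipo-TriTE against Lipo-BiTE they numbered 5 to 12 (7), with 11 by DESeq2, 12 with no filter and 10 with only the groups compared. Leaving out 1 library gave 2 to 8, 12 to 17 and 0 to 12. Of all genes, 80 to 971, 1391 to 2644 and 158 to 1120 were then called lower. The labels do not say whether replicate numbers pair the samples. Deviations from group means correlated at -0.19 to 0.08 over 9 same-numbered pairs of libraries and at -0.17 to 0.24 over differently numbered pairs. With 3 libraries a group this cannot settle whether the numbers mark a pairing. With the replicate block, 5, 14 and 5 chains were called: Col6a1 left the first (adjusted p = 0.0626), Col2a1 and Col23a1 the second with Col6a3 joining, and Col16a1 and Col4a5 the third. All 120 alternatives for the ratios of summed classes stayed within 1 SD of the ratio, taken from the spread between libraries in both groups. With 3 libraries a group that bound is wide, so staying within it does not show that the ratios are stable.

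Signs turned only for chains not called. In Lipo-BiTE against PBS, log2 fold changes over the 9 fits with a library left out ranged from -0.43 to 0.043 for Col16a1. The ranges were -0.40 to 0.016 for Col18a1, -0.38 to 0.17 for Col23a1, -0.39 to 0.083 for Col4a2 and -0.33 to 0.23 for Col5a3. With all libraries these chains stood at -0.14, -0.14, -0.18, -0.12 and 0.0044, in that order. Col5a3 was also at -0.12 without TMM, -0.0060 with no filter and -0.0014 at 1 CPM in 3 libraries. In Lipo-TriTE against PBS the ranges were -0.23 to 0.49 for Col15a1 and -0.31 to 0.0067 for Col5a2. In Lipo-TriTE against Lipo-BiTE they were -0.25 to 0.38 for Col1a1, -0.51 to 0.0030 for Col6a1, -0.35 to 0.12 for Col6a2 and -0.50 to 0.20 for Col6a3, with Col6a2 at 0.029 without TMM. With GENCODE lengths the highest ratio per length became 0.0357 for Col1a1 over Col3a1 (0.0570 as deposited) and 0.232 for Col6a2 over Col6a1 (0.118). The cause was not tested.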
